A study of Danio rerio with 4 samples.

Results

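The widest stretches of an ATAC-seq count table from zebrafish (Danio rerio) heart cells are described here. They are the intervals spanning over 50 kb from start to end on the 21 chromosomes other than 3, 4, 7 and 22, which makes 3369 of the 54036 intervals of the table. Reads were counted in intervals called from the reads themselves, so both the width and the read density of an interval come from the same 4 libraries. The 4 libraries, all at day 7, form the groups WT and Treatment with 2 replicates each. In the labels both are wild type in genotype. The labels name nonCMs (cells of the heart other than cardiomyocytes) from the injury area as the input and add amputation for Treatment. The text of the study instead compares tnfα mutant (sa43296) with wild-type hearts after amputation of the ventricle. The label names are kept, and whether the groups differ in genotype, in injury or in both cannot be told apart. The nonCMs were separated from digested ventricles by centrifugation, and this fraction holds several cell types. A change in the mix of cells and a change within a cell type cannot be told apart in such bulk libraries. The marker loci of these cell types were not checked, because no gene coordinates of GRCz11 were used. Nothing in the sources used here says whether the replicates came from separate animals, so p-values measure only the spread between these libraries.

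ATAC-seq marks open DNA through the cuts of the transposase Tn5. Promoters and enhancers free of nucleosomes give short stretches dense in cuts, while DNA wrapped in nucleosomes is cut now and then over long distances, and compact heterochromatin is cut less still. A sharp accessible site and the long stretch beside it can thus differ much in density. What made stretches of over 50 kb intervals of this table was not tested.

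The intervals over 50 kb were long and sparse, and mostly rich in reads. Their width had a median of 81.8 kb, quartiles of 62.2 and 123 kb, and a maximum of 815 kb. They covered 362 Mb, or 45.0% of the 806 Mb in the table, and held 30.05% of all counts. Read density, the mean of the 4 libraries in reads per kb, had a median of 12.98, quartiles of 10.3 and 16.2, and 5th and 95th percentiles of 6.46 and 21.2. Intervals of at most 1 kb on the same chromosomes had a median density of 177 reads per kb, those of 1 to 5 kb 34.6, those of 5 to 20 kb 16.3 and those of 20 to 50 kb 13.6. Density thus fell with width, most steeply among the narrower classes. Within the intervals over 50 kb, Spearman's rho between density and width was -0.03 across intervals, which are not independent replicates. The median count was 1095.5 reads in a library, which gives a counting error of 3.02% if reads are independent, and the range was 29 to 13892 reads.

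At the limit of 50 kb the narrowest members were chr9:1589672-1639672 (50001 bp, 9.74 reads per kb), chr17:6217704-6267717 (50014 bp, 7.26) and chr20:38620666-38670696 (50031 bp, 11.7). Just outside it were chr20:40269891-40319890 (50000 bp, 12.03), chr2:16597261-16647259 (49999 bp, 13.995) and chr1:51475103-51525086 (49984 bp, 11.51). All coordinates are on GRCz11.

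The widest interval, chr1:42224769-43039672, spanned 815 kb and held 12488 and 12610 reads in the WT libraries and 10913 and 12160 in the Treatment libraries. Next came chr8:28900689-29635923 (735 kb), with 13702 and 13892 reads in WT and 11901 and 13652 in Treatment. The third, chr21:27636288-28340977 (705 kb), held 11785 and 12065 reads in WT and 10281 and 11953 in Treatment. After scaling all 3 were nearly level between the groups, with log2 fold changes of Treatment over WT of -0.04, -0.03 and -0.03.

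The densest intervals were still far below the median of the narrow ones. The highest density was 46.3 reads per kb at chr9:42732992-42873700, with 6799 and 6651 reads in WT and 5832 and 6795 in Treatment. A second dense interval lay close by at chr9:42894845-43073960, with 43.8 reads per kb (8275 and 8095 reads in WT, 7006 and 7972 in Treatment). On chromosome 24, chr24:23241444-23323526 reached 44.5 reads per kb (3773 and 3867 reads in WT, 3242 and 3721 in Treatment). Densities above 25 reads per kb were found in 51 of the 3369 intervals.

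At the other end, chr20:12566101-12642640 held 34 and 31 reads in the WT libraries and 36 and 32 in the Treatment libraries, which is 0.434 reads per kb. The next sparsest were chr1:34954697-35113974 at 0.680 reads per kb (111 and 125 reads in WT, 99 and 98 in Treatment) and chr21:29706179-29991098 at 0.833 (252 and 287 in WT, 203 and 207 in Treatment). The counts of chr20:12566101-12642640 overlapped between the groups, whereas in the other 2 both Treatment counts were below both WT counts before scaling. Neither of those 2 was called (edgeR adjusted p = 0.828 and 0.449). Scaled values of the groups did not overlap in 41.2% of all tested intervals. Densities below 5 reads per kb were found in 89 intervals, spread over all 21 chromosomes.

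Read density varied much less between chromosomes than within each of them. The chromosome medians ran from 11.4 reads per kb on chromosome 25 (117 intervals) to 13.8 on chromosome 1 (152 intervals), a ratio of 1.21. Chromosomes 8 and 20 were the next lowest, at 11.6 and 12.1. The chromosome of an interval accounted for 0.826% of the variance of log2 density. In scaled reads per kb, pooled over the intervals of chromosome 1, the WT libraries had 14.2 and 13.7 and the Treatment libraries 13.98 and 14.1. On chromosome 25 they had 12.4 and 11.8 in WT and 12.2 and 12.4 in Treatment. Chromosome 1 lay above chromosome 25, the other extreme of the medians, in every library by more than the libraries of a group differed. The order of chromosomes depended on the measure. In pooled density chromosome 9 was the highest in every library, with 14.3 and 13.7 in WT and 14.1 and 14.2 in Treatment.

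**Figure D1:**
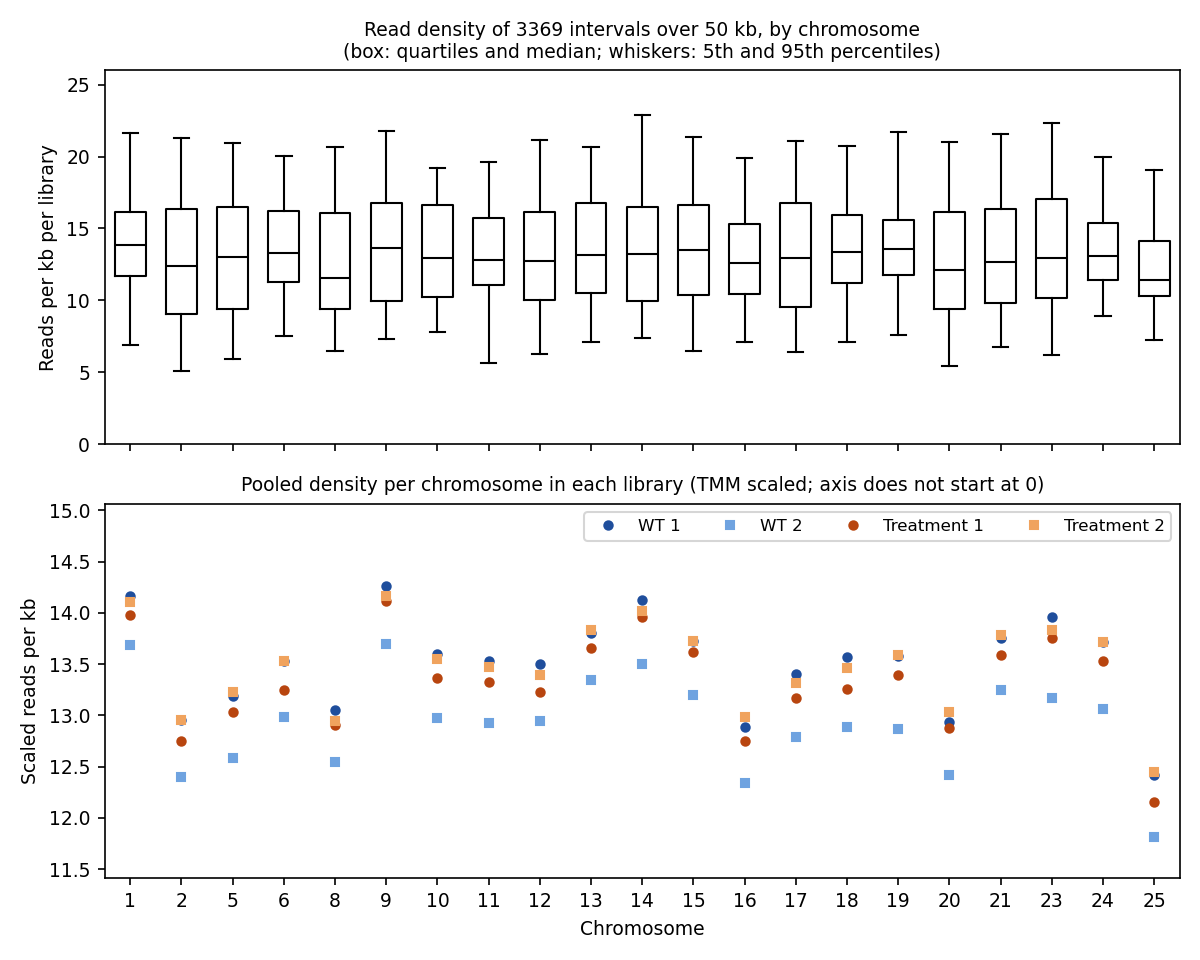
Read density of the 3369 intervals over 50 kb on each of 21 chromosomes. The upper panel gives boxes of mean reads per kb per library (quartiles and median, whiskers at the 5th and 95th percentiles), and the lower panel the pooled density of each library in TMM-scaled reads per kb on an axis that does not start at 0, where WT replicate 2 is the lowest library on all 21 chromosomes.

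Position along the chromosome went with a larger difference in density. Each chromosome was cut into 10 bins of equal length between its start and the last interval bound in the table, since chromosome lengths were not used. The median density rose from 10.7 reads per kb in bin 1 through 11.3, 12.5 and 13.7 to 16.4 in bin 5 and 16.7 in bin 6, and then fell through 15.6, 13.3 and 11.1 to 9.07 in bin 10. The bins accounted for 19.6% of the variance of log2 density. Intervals of at most 1 kb showed no such arch, with medians of 181 reads per kb in bin 1, 179 in bin 5, 172 in bin 6 and 182 in bin 10. Intervals of 5 to 50 kb did show it, with 12.5 reads per kb in bin 1, 19.5 at most and 10.99 in bin 10, so the arch was not particular to the widest class.

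The arch was steep on some chromosomes and hardly present on others. Over all 21, the 698 intervals in bins 5 and 6 had a median of 16.5 reads per kb and the 600 in bins 1 and 10 had 10.01. This contrast was chosen after the profile was seen and is given as a description. The ratio of middle to outer density by chromosome was lowest on chromosome 24 (1.01), 25 (1.05) and 1 (1.11) and highest on chromosome 17 (2.40), with a median of 1.64, and was above 1 on all 21. On chromosome 17 the middle had 18.6 reads per kb and the outer bins 7.77, while on chromosome 24 they had 14.2 and 14.1. By library the ratio over all chromosomes was 1.67 and 1.67 in WT and 1.65 and 1.64 in Treatment. The groups did not overlap, by a difference of -0.02 on the log2 scale (exact permutation test over 2 against 2 libraries, two-sided p = 0.333, the smallest this design can give).

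**Figure D2:**
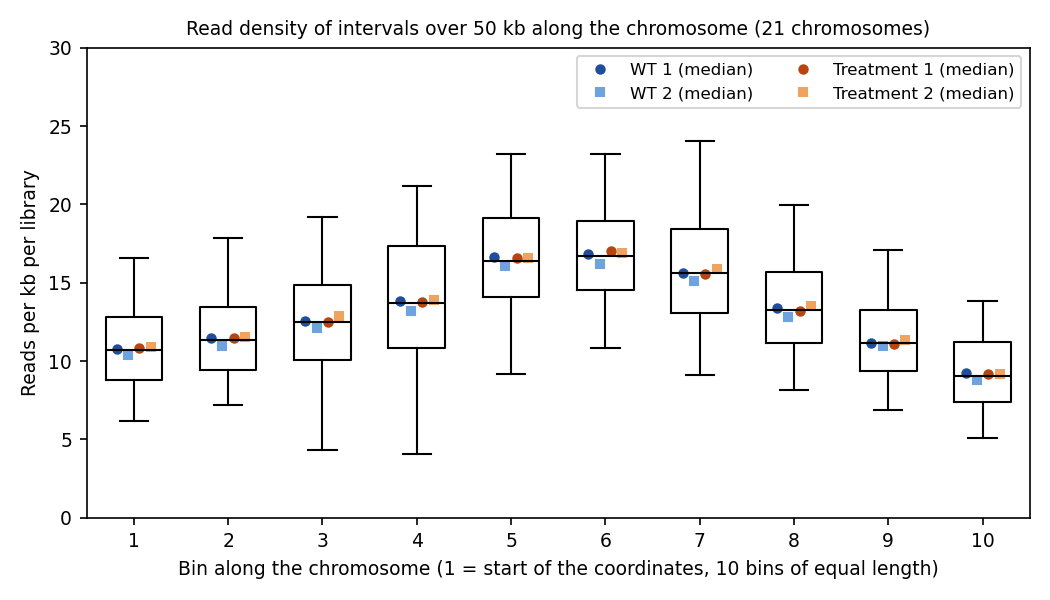
Read density in mean reads per kb per library (boxes: quartiles and median, whiskers: 5th and 95th percentiles) of the intervals over 50 kb in each of 10 bins along the chromosome, over 21 chromosomes. Points give each library's median in TMM-scaled reads per kb, and all 4 libraries follow the same arch from 10.7 in bin 1 to 16.7 in bin 6 and 9.07 in bin 10.

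The intervals below 5 reads per kb did not follow this arch. Of the 89, bins 3 and 4 held 20 and 19, bin 10 held 14, and bins 1 and 2 held 3 each. Intervals above 25 reads per kb lay mostly near the middle, with 10, 11 and 13 of the 51 in bins 5, 6 and 7 and 0 in bins 1 and 10. Within 1 Mb of the outermost interval bounds there were 83 intervals, with a median density of 11.3 reads per kb against 13.0 in the others.

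Wide intervals touched a neighbour less often than intervals of the table at large, and the neighbours they touched were mostly narrow. Of their 6735 sides with a neighbour on the chromosome, 1912 (28.4%) touched the next interval without a gap, against 44.7% of all neighbouring pairs in the table. On both sides 320 intervals were bounded in this way and 1777 on no side. Of the touching neighbours 93.1% were at most 1 kb wide, with a median width of 474 bp and a median density of 175 reads per kb, and 100% of them were denser than the wide interval they touched. No touching neighbour was itself over 50 kb. Where there was a gap, its median was 11.97 kb. In the 446 pairs of intervals over 50 kb that were next to each other in the table, log2 density was similar within a pair (Pearson's r = 0.65 across pairs, which share the libraries and a stretch of chromosome). The log2 fold change between the groups was hardly so (r = 0.08). For the difference within the WT pair r was 0.01, and within the Treatment pair 0.03.

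Replicates were closest in log2 CPM in the widest intervals, which also held the most reads each. The median absolute difference of log2 CPM (counts scaled to library size) between replicates was 0.08 in WT and 0.06 in Treatment, against 0.18 and 0.17 over all 50494 tested intervals and 0.26 and 0.24 in intervals of at most 1 kb. Counting alone would give 0.04 in both pairs if each read were an independent count. In a chi-square comparison of the counts the statistic was set against its degrees of freedom. It was 3.07 times these in WT and 2.54 times in Treatment in intervals of at most 1 kb. In those of 20 to 50 kb it was 2.76 and 2.46 times. In the intervals over 50 kb it was 2.79 and 2.57 times, so replicates there differed by more than sampling noise, much as in the narrower classes. The 90th percentile of the difference was 0.20 in WT and 0.18 in Treatment, and the fit's median biological coefficient of variation was 5.24%, against 14.6% in intervals of at most 1 kb. The log2 fold change of an interval carried a median standard error of 0.08 over these intervals and 0.27 over those of at most 1 kb.

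**Figure D3:**
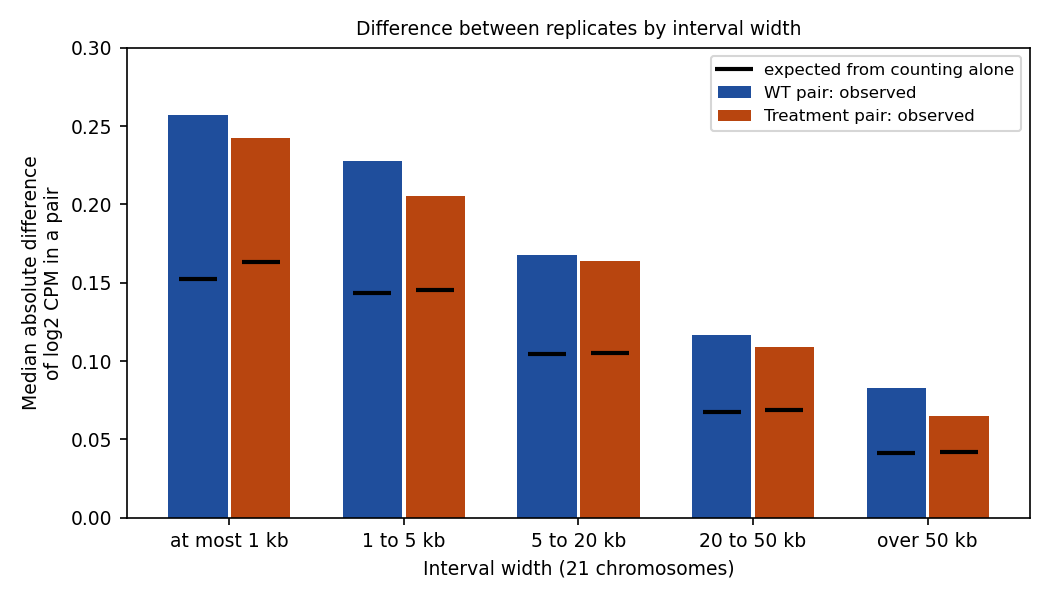
Median absolute difference of log2 CPM between the replicates of a group, by interval width on 21 chromosomes. Bars are the WT and Treatment pairs and black lines the difference expected from counting alone, with each read taken as independent. The bars fall from 0.26 and 0.24 in intervals of at most 1 kb to 0.08 and 0.06 in those over 50 kb, where they lie above the counting lines at 0.04.

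Part of the WT spread was a shift of 1 library. WT replicate 2 was below WT replicate 1 in 72.7% of the intervals over 50 kb, by a median of -0.06 in log2 CPM, and its pooled density was lower on all 21 chromosomes. In intervals of at most 1 kb WT replicate 2 was instead above WT replicate 1, by a median of 0.08. Treatment replicate 2 was above Treatment replicate 1 by a median of 0.02 in the intervals over 50 kb. After removal of each pair's median shift the typical differences were 0.07 in WT and 0.06 in Treatment. The same shift appeared in the share of all counts that fell in these intervals, which was 30.34% (95% Wilson interval 30.32 to 30.36, counting error only) and 29.41% (29.39 to 29.43) in WT and 30.02% (29.99 to 30.04) and 30.43% (30.41 to 30.46) in Treatment. The group means were 29.9% ± 0.656 (SD, n = 2) and 30.2% ± 0.295 (n = 2), and the groups overlapped (exact permutation test, two-sided p = 0.667, the smallest possible being 0.333).

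Single intervals with a large gap between replicates were few and sparse. A difference of at least 0.5 in log2 CPM was found in 5 intervals between the WT libraries and in 7 between the Treatment libraries. The largest in WT was at chr2:19574496-19630297, with 70 and 138 reads in WT and 58 and 75 in Treatment. The largest in Treatment was at chr21:4406942-4464873, with 55 and 72 reads in WT and 49 and 29 in Treatment. Both were picked after their values were seen. Spread fell with density, from 0.10 in WT and 0.09 in Treatment in the sparsest of 5 equal density classes to 0.07 and 0.05 in the densest.

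The comparison of Treatment with WT asked where read counts differed between the groups, with the libraries scaled on all intervals of the table. Most of the widest intervals were level within a narrow band. The log2 fold change had a median of 0.02, quartiles of -0.03 and 0.08, 5th and 95th percentiles of -0.12 and 0.17, and a range of -0.98 to 1.15. Its size was at least 0.25 in 2.23% of the intervals (against 33.1% of all tested ones) and at least 0.5 in 12 (0.356%, against 11.1% of all tested intervals). These shares differ in precision, with a median standard error of 0.08 here and 0.21 over all tested intervals. They therefore cannot show that the widest intervals changed less. The fold change was above 0 in 61.4% of these intervals and in 49.5% of all tested ones. On the same chromosomes this share was 63.4% in intervals of 20 to 50 kb and 60.1% in those of 5 to 20 kb. It was 51.9% in those of 1 to 5 kb and 36.7% in those of at most 1 kb. The lean was thus not particular to the widest class.

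The slight lean to Treatment in the intervals over 50 kb was not seen without WT replicate 2. By chromosome the median log2 fold change ran from 0.01 on chromosome 6 to 0.04 on chromosome 20 and was above 0 on all 21, yet the libraries of the groups overlapped in pooled density on all 21. Without WT replicate 2 the median was -0.005 and 47.9% of the intervals were above 0, and without WT replicate 1 it was 0.06 with 73.0% above 0. Without Treatment replicate 1 the median was 0.03 with 63.9% above 0, and without Treatment replicate 2 it was 0.01 with 56.5%. It also moved with the scaling, to 0.003 with factors from the intervals over 50 kb and 0.14 with factors from those of at most 1 kb, a setting that shifts the median of all tested intervals by 0.11 in log2. In each library the median log2 CPM of these intervals minus that of the rest of the table, after centring each interval over the libraries, was 0.01 and -0.05 in WT and 0.0003 and 0.03 in Treatment. The groups overlapped there too (exact permutation test, two-sided p = 0.667).

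In 14 of the 3369 intervals (0.416%) the groups differed at an adjusted p under 0.05 by edgeR's quasi-likelihood test with Benjamini-Hochberg adjustment over all 50494 tested intervals, against 1.16% of all tested intervals. Scaled read counts were higher in Treatment in 9 (0.267%, against 0.438% of all tested intervals) and lower in 5 (0.148%, against 0.721%). At an unadjusted p under 0.05 there were 161 higher (4.78%, against 4.51%) and 42 lower (1.25%, against 6.68%). Off chromosomes 3, 4, 7 and 22 there were 327 higher and 77 lower among the 5374 tested intervals of 20 to 50 kb. Among the 16559 tested ones of at most 1 kb there were 527 and 1912. The imbalance over 50 kb moved with the scaling, to 123 higher and 105 lower with factors from the intervals over 50 kb. With factors from those of at most 1 kb it was 447 and 5. It also moved with single libraries, to 353 higher and 31 lower without WT replicate 1 and to 122 and 90 without WT replicate 2. When Treatment replicate 1 was left out there were 115 and 21, and with Treatment replicate 2 left out 74 and 37. Scaled values of the groups did not overlap in 35.7% of these intervals, against 41.2% of all tested ones. They did so upwards in 24.3% (against 19.9%) and downwards in 11.5% (against 21.4%). On the same 21 chromosomes 0.774% of all tested intervals were called and 0.428% of those of 20 to 50 kb. By contrast 47 of the 715 intervals over 50 kb on chromosomes 3, 4, 7 and 22 were called (6.57%, 11 higher and 36 lower).

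The called intervals were sparse. Of the 14, 12 were below the median density of 12.98 reads per kb and 7 were below the 5th percentile of 6.46. Among the 89 intervals under 5 reads per kb, a limit chosen after the data were seen, 5 were called (5.62%), against 0.274% of the others. Those 89 also had larger differences between replicates, 0.13 in WT and 0.13 in Treatment against 0.08 and 0.06 in the others, and a median of 275 reads per library. Their median absolute log2 fold change was 0.14, against 0.05 in the others. The called intervals lay on 12 chromosomes and were 61.7 to 400 kb wide. With DESeq2's Wald test 7 of these 14 were called (4 higher, 3 lower) and no other interval over 50 kb (0.208%), against 0.499% of all tested intervals. Lower intervals that lost their call under this test were chr9:19681569-19762801 and chr20:35568552-35706379. The higher ones that lost it were chr13:16521898-16636845, chr15:7992906-8151485, chr16:22022533-22097384, chr23:43320903-43393589 and chr24:37722048-37794593. The total of calls rose without WT replicate 1 and fell without any of the other libraries. It moved in the same direction over all tested intervals, so these moves are not particular to the widest class.

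**Figure D4:**
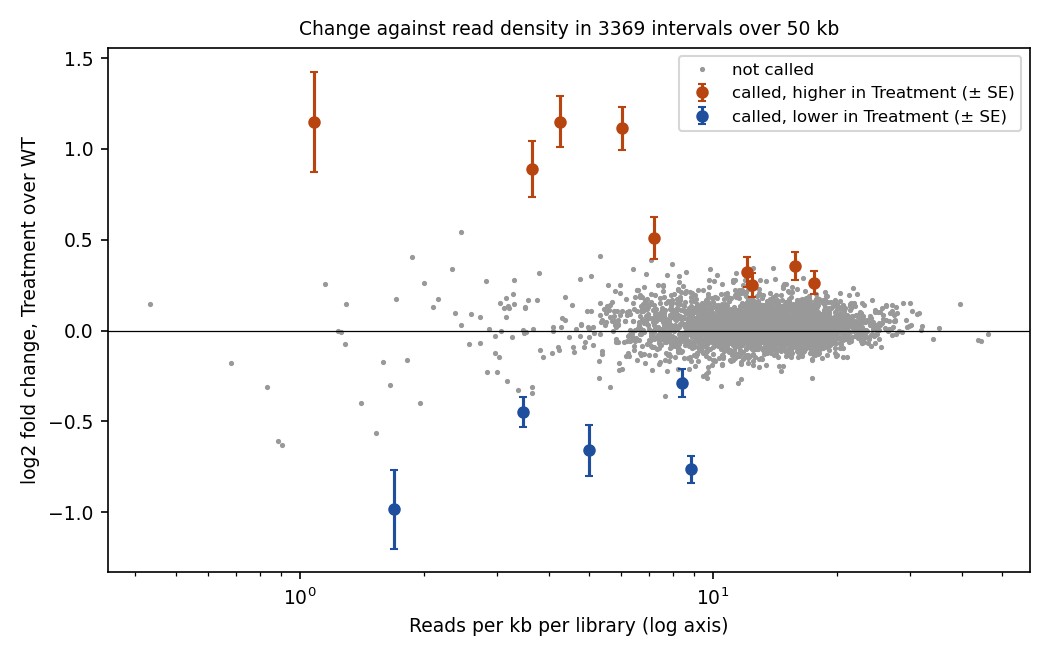
Log2 fold change of Treatment over WT against mean reads per kb per library (log axis) for the 3369 intervals over 50 kb. Coloured points with bars (± SE) are the 14 called intervals, 9 higher and 5 lower in Treatment, of which 12 lie below 12.98 reads per kb, while the grey points mostly stay within 0.25 of 0.

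Of the called intervals, 4 stayed called under all 14 alternative settings of the analysis, and 3 of these were higher in Treatment. The interval with the largest log2 fold change was chr8:22404981-22476458 (71.5 kb, 4.27 reads per kb), with 192 and 201 reads in the WT libraries and 389 and 438 in the Treatment libraries. In CPM the WT libraries were at 11.97 and 11.86 and the Treatment libraries at 26.45 and 26.46, so both Treatment libraries were above both WT libraries. The mean was 2.22-fold higher (log2 fold change 1.15, SE 0.14, edgeR adjusted p = 2.03e-07). At chr19:3717988-3790595 (72.6 kb, 6.03 reads per kb) the counts were 303 and 272 in WT and 584 and 593 in Treatment. The CPM means were 17.5 ± 2.01 (SD, n = 2) and 37.8 ± 2.75 (n = 2), without overlap. The mean was 2.16-fold higher (log2 fold change 1.11, SE 0.12, edgeR adjusted p = 1.08e-08). At chr15:37259354-37324971 (65.6 kb, 3.65 reads per kb) the counts were 166 and 181 in WT and 275 and 335 in Treatment. CPM rose from 10.5 ± 0.235 (SD, n = 2) to 19.5 ± 1.09 (n = 2), a log2 fold change of 0.89 (SE 0.16, edgeR adjusted p = 0.000357). The groups did not overlap.

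The remaining interval of these 4 was lower in Treatment and had the smallest standard error of the 4. At chr11:36542188-36687267 (145 kb, 8.87 reads per kb) the counts were 1561 and 1742 in WT and 863 and 979 in Treatment. CPM was 97.3 and 103 in the WT libraries and 58.7 and 59.1 in the Treatment libraries, which do not overlap. Its log2 fold change was -0.76 (SE 0.07, edgeR adjusted p = 5.75e-10).

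The other 4 intervals that were lower in Treatment each lost their call when WT replicate 2 was left out. At chr9:19681569-19762801 (81.2 kb) there were only 1.69 reads per kb, with 169 and 204 reads in WT and 103 and 74 in Treatment. Both Treatment libraries were lower and differed from each other more than the WT libraries did (CPM 7.00 and 4.47, against 10.5 and 12.04). Treatment over WT gave a log2 fold change of -0.98 (SE 0.22, edgeR adjusted p = 0.00744), and the adjusted p was 0.0690 without WT replicate 2 and 0.339 without Treatment replicate 2. At chr5:39877073-39938810 (61.7 kb, 5.01 reads per kb) the counts were 345 and 428 in WT and 220 and 243 in Treatment. Its CPM fell from 23.4 ± 2.65 (SD, n = 2) to 14.8 ± 0.198 (n = 2), with a log2 fold change of -0.66 (SE 0.14, edgeR adjusted p = 0.00541). The groups did not overlap, and the adjusted p was 0.151 without WT replicate 2 and 0.0728 without Treatment replicate 2.

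The widest called interval was chr8:24297994-24697586, 400 kb long at 3.47 reads per kb. Its counts were 1415 and 1861 in WT and 1127 and 1137 in Treatment. In CPM the WT libraries were at 88.2 and 109.8 and the Treatment libraries at 76.6 and 68.7, so the WT libraries differed from each other more than WT replicate 1 differed from Treatment replicate 1. The log2 fold change was -0.45 (SE 0.08, edgeR adjusted p = 0.000577), and -0.28 with an adjusted p of 0.106 without WT replicate 2. On the same chromosome, chr8:22404981-22476458 above was higher in Treatment. The smallest decrease was at chr20:35568552-35706379 (138 kb, 8.40 reads per kb), with 1224 and 1388 reads in WT and 990 and 1031 in Treatment. The groups did not overlap (CPM 79.1 ± 3.96 and 64.8 ± 3.56, SD, n = 2 each), and the log2 fold change was -0.29 (SE 0.08, edgeR adjusted p = 0.0481). It was no longer called in 8 of the 14 alternatives, with an adjusted p of 0.334 without WT replicate 2, 0.0945 without Treatment replicate 1 and 0.575 without Treatment replicate 2.

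The remaining 6 higher intervals changed less or were thinly covered. The thinnest was chr23:43320903-43393589 (72.7 kb, 1.08 reads per kb), with 63 and 38 reads in WT and 91 and 123 in Treatment. CPM was 3.08 ± 1.19 (SD, n = 2) in WT and 6.81 ± 0.879 (n = 2) in Treatment, without overlap. The log2 fold change was 1.15 (SE 0.28, edgeR adjusted p = 0.0215), and the adjusted p was 0.335 without WT replicate 2 and 0.255 without Treatment replicate 2. At chr16:22022533-22097384 (74.9 kb, 7.19 reads per kb) the counts were 416 and 498 in WT and 491 and 747 in Treatment. Treatment replicate 2 stood out there (CPM 45.1, against 33.4 in Treatment replicate 1 and 25.9 and 29.4 in WT). Its log2 fold change was 0.51 (SE 0.12, edgeR adjusted p = 0.0125), and 0.27 with an adjusted p of 0.714 without Treatment replicate 2.

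The last 4 had log2 fold changes of 0.25 to 0.35 at densities of 12.1 reads per kb or more. At chr2:20793982-20866476 (72.5 kb) the counts were 1016 and 1057 in WT and 1187 and 1324 in Treatment, and CPM rose from 62.8 ± 0.681 (SD, n = 2) to 80.3 ± 0.516 (n = 2). Its log2 fold change was 0.35 (SE 0.08, edgeR adjusted p = 0.00543), and the adjusted p was 0.0806 without Treatment replicate 1 and 0.0924 without Treatment replicate 2. At chr24:37722048-37794593 (72.5 kb) the counts were 808 and 803 in WT and 907 and 1001 in Treatment, with a log2 fold change of 0.32 (SE 0.08, edgeR adjusted p = 0.0386). At chr13:16521898-16636845 (115 kb) the counts were 1839 and 1931 in WT and 1959 and 2333 in Treatment, with a log2 fold change of 0.26 (SE 0.06, edgeR adjusted p = 0.0232). At chr15:7992906-8151485 (159 kb) the counts were 1860 and 1852 in WT and 1971 and 2214 in Treatment, with a log2 fold change of 0.25 (SE 0.06, edgeR adjusted p = 0.0365). In these 4 intervals the scaled values of the groups did not overlap. Without Treatment replicate 2 the adjusted p was 0.254 at chr24:37722048-37794593, 0.480 at chr13:16521898-16636845 and 0.332 at chr15:7992906-8151485, and without Treatment replicate 1 it was 0.251, 0.0766 and 0.240. Without WT replicate 2 it was 0.227 at chr24:37722048-37794593 and 0.201 at chr15:7992906-8151485.

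**Figure D5:**
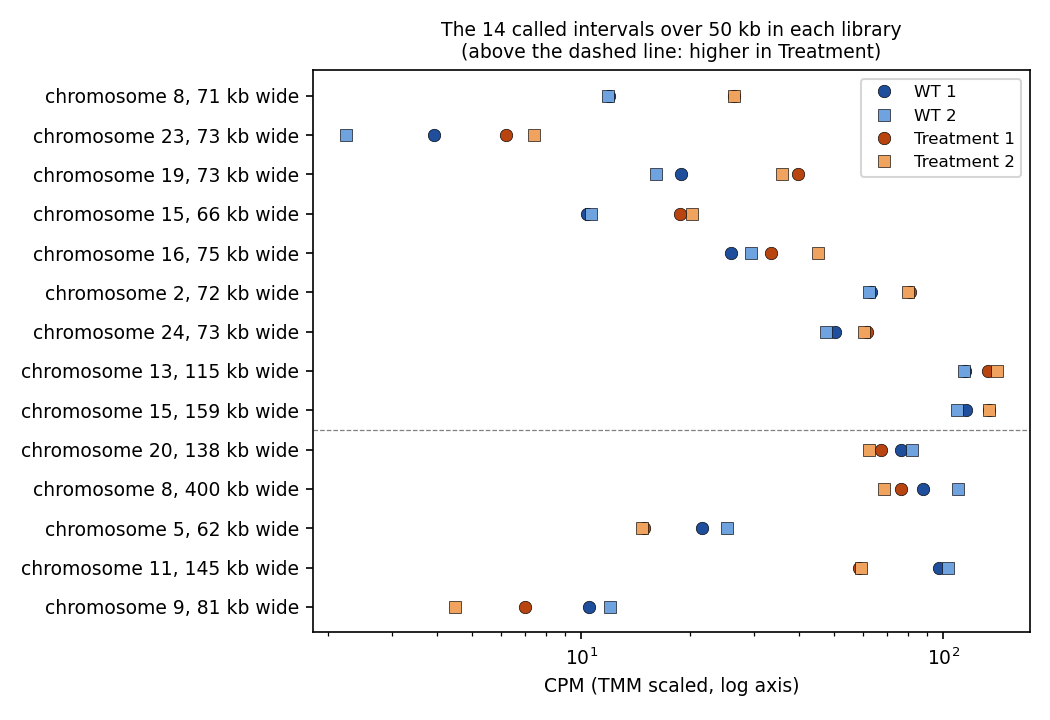
CPM (TMM scaled, log axis) of the 14 called intervals in each of the 4 libraries, each labelled by chromosome and width. The 9 intervals above the dashed line were higher in Treatment and the 5 below it lower. In none do the WT and Treatment libraries overlap, which also holds for 41.2% of all tested intervals.

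Size alone did not decide a call. Of the 12 intervals whose log2 fold change was at least 0.5 in size, 8 were called. The 4 that were not called were chr17:46561140-46722470 (-0.63, edgeR adjusted p = 0.142), chr21:4406942-4464873 (-0.61, 0.502), chr2:19574496-19630297 (-0.56, 0.431) and chr2:17524278-17575605 (0.54, 0.281).

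Some intervals around the called ones changed too. Within 100 kb of the 14 there were 138 other intervals, of which 133 were tested and 73 had the same sign as the wide interval. Calls were made in 7 (5.26%, against 1.16% of all tested intervals and 0.774% of those off chromosomes 3, 4, 7 and 22). Of these 7, 5 had the same sign as the wide interval beside them. The 2 of these 5 on chromosome 16 passed the filter on low counts only through the Treatment libraries. Called neighbours were found at 5 of the 14, and at 3 of these the called neighbours had the same sign. Those 3 were on chromosomes 8, 16 and 23. Beside chr8:22404981-22476458, the 12064-bp interval chr8:22477922-22489985 held 18 and 27 reads in WT and 110 and 142 in Treatment (log2 fold change 2.55, SE 0.30, edgeR adjusted p = 9.56e-08). The next one, the 17987-bp interval chr8:22490069-22508055, held 222 and 240 reads in WT and 360 and 377 in Treatment (log2 fold change 0.75, SE 0.14, edgeR adjusted p = 0.000822). All 3 intervals of this stretch were thus higher in both Treatment libraries.

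Near chr16:22022533-22097384, the 6809-bp interval chr16:22015648-22022456 held 0 reads in both WT libraries and 47 and 78 in the Treatment libraries. Against a floor of 3 counts over the WT group it was at least 44.0-fold higher in Treatment (edgeR adjusted p = 3.00e-09). The 3181-bp interval chr16:22009140-22012320 held 0 and 2 reads in WT and 17 and 15 in Treatment (edgeR adjusted p = 0.0173). Both of these chromosome 16 neighbours could be tested only because they were high in Treatment. Their calls are given as a description and add no support to the call of chr16:22022533-22097384. Near chr23:43320903-43393589, the 6346-bp interval chr23:43300892-43307237 held 19 and 23 reads in WT and 70 and 74 in Treatment (log2 fold change 1.85, SE 0.34, edgeR adjusted p = 0.000843).

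At the other 2 sites a narrow neighbour went the opposite way. Directly touching chr11:36542188-36687267, which was lower in Treatment, the 771-bp interval chr11:36541417-36542187 held 49 and 40 reads in WT and 101 and 103 in Treatment (log2 fold change 1.27, SE 0.28, edgeR adjusted p = 0.00664). Close to chr19:3717988-3790595, which was higher in Treatment, the 329-bp interval chr19:3792076-3792404 held 56 and 57 reads in WT and 16 and 21 in Treatment (log2 fold change -1.53, SE 0.38, edgeR adjusted p = 0.0239). In both of these called neighbours the counts of the groups did not overlap. Past the one on chromosome 11 lay the 63.9-kb interval chr11:36477481-36541416, with 825 and 829 reads in WT and 577 and 710 in Treatment. It was lower in Treatment but not called (log2 fold change -0.29, SE 0.09, edgeR adjusted p = 0.138). Of the 7 tested intervals around chr11:36542188-36687267, 3 had its sign. The 4 intervals that stayed called under every alternative thus included 2 with an opposed narrow neighbour, 1 with called neighbours of the same sign (chromosome 8) and 1 with no called neighbour within 100 kb (chr15:37259354-37324971).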

How the data were processed

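ATAC-seq was measured in 2 WT and 2 Treatment libraries made with an Active Motif kit. The authors used Trim Galore for trimming and Bowtie2 for alignment to GRCz11, dropped mitochondrial and multiply mapped reads, and called peaks with Genrich per condition over both replicates (q 0.05). Counting, the joining of peak sets, duplicate removal and Tn5 shifting are not given in the sources used here. The authors deposited raw counts per interval, with totals of 16128000 and 16822284 in WT and 14736856 and 16558109 in Treatment. These totals are sums over intervals and not sequencing depth, and reads are not independent molecules. Printed starts are the deposited starts plus 1.

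All intervals were filtered with filterByExpr (minimum count 10), which all 3369 members passed, scaled by TMM and tested with edgeR 4.0.16 (glmQLFit, glmQLFTest, R 4.3.3, group as the only term, Benjamini-Hochberg, threshold 0.05). The standard error is the size of the log2 fold change divided by the square root of F. Log2 CPM used a prior count of 2. The test was checked only on counts simulated from its own fitted model, which cannot show whether that model holds for these libraries. Named intervals are all called members, the 3 widest, the 3 densest and the 3 sparsest, neighbours within 100 kb, and others marked as picked after seeing values. Members and lists were chosen with earlier results of these data known. Alternatives were other scalings and filters, DESeq2 1.42.0, limma 3.58.1 with voom, a replicate block, other width limits and thresholds, and fits without each library. Gene content, marker loci, sequences and GC content need gene positions or a genome on GRCz11 and are not reported here.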

Additional observations from a re-analysis of the deposited data

How the results depend on the processing

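The counts of 9 higher and 5 lower intervals moved by over 1.5 times under several settings. They were 17 and 3 when TMM factors came only from the intervals up to 1 kb wide. That setting moved the median log2 fold change to 0.14 and called 715 of all 50494 tested intervals, against 585 in the main fit. With DESeq2's Wald test the counts were 4 and 3, and 252 of all tested intervals were called. Higher calls were 14 at an adjusted p under 0.1, and the calls were 161 and 42 at an unadjusted p under 0.05. Intervals over 30 kb gave 20 and 9 calls (0.483% of 6002), and those over 100 kb gave 2 and 3 (0.418% of 1197). Leaving out each library gave 4 to 24 higher calls, 2 to 5 lower calls and a median log2 fold change of -0.0049 to 0.057, with the remaining library of that group assumed to vary like the others. Of 196 comparisons of the 14 called intervals with an alternative fit, 196 kept the direction, 160 kept the call, and no fold moved by over 1.37 times. The kept direction carries little weight, since these fits reuse the same counts. The groups did not overlap at any of the 14, so leaving out 1 library could hardly reverse it. The middle to outer density ratio of 1.65 was 1.70 over 30 kb, 1.62 over 100 kb, 1.54 with 5 bins in place of 10, and 1.64 to 1.66 without each library. The settings of this ratio were chosen after seeing the data. With a replicate block the calls were 10 higher and 5 lower. The correlation of same-numbered libraries' deviations was -0.03 over these intervals. With 2 replicates per group this cannot show whether same-numbered libraries were handled together. No pairing was used in the main fit. With 2 libraries per group and 29 reads in the thinnest interval, small changes in sparse intervals are not detectable at this depth. A correction for GC content was not run.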
